A study of Rattus norvegicus with 6 samples.

Results

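Rab GTPases and SNARE proteins of the membrane traffic system were followed through the differentiation of cultured rat oligodendrocyte lineage cells. The genes were taken from the deposited table by symbol: protein-coding genes named as numbered Rab, syntaxin (Stx) or Vamp genes, together with Snap23, Snap25, Snap29 and Snap47. This gave 84 of the 37991 genes in the table, of which 58 were Rab genes and 26 were SNARE genes. Of the 84 genes, 80 had enough reads to be tested.

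RNA of whole cultures from SD rats was sequenced in 3 libraries of differentiated oligodendrocytes and 3 libraries of oligodendrocyte precursors, all grown in Raff medium, with no genetic change or drug named in the labels. The differentiated cultures had gone through a change of growth factors, which the precursor cultures had not. The titles number the replicates 1, 2 and 5 in each group, place the differentiated replicates 1 and 2 at day 3 and the precursor replicates 1 and 2 at day 0, and give no day in that form for replicate 5. Whether the replicates were separate cultures or came from separate animals is not labelled, and the p-values reflect only how far these libraries scatter, which may be technical scatter.

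Rab proteins are small GTPases that mark the compartments of the cell. In the GTP-bound form each sits on its own membrane and recruits motors, tethers and other effectors, and exchange factors and GTPase activating proteins switch it on and off. SNARE proteins then fuse the membranes: an R-SNARE on the vesicle (Vamp proteins) pairs with Q-SNAREs on the target (syntaxins and Snap proteins). Oligodendrocytes depend on this traffic to deliver myelin proteins and lipids to a growing sheath, and Vamp3 and Vamp7 are known to carry the myelin protein PLP to the surface of cultured oligodendrocytes.

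Total counts ran from 55522101 to 79898629 per library, so a level of 1 CPM (read counts relative to library size, here with the TMM scaling of edgeR) rested on 55.5 reads in the smallest library. Myelin genes marked the differentiated cultures: 10 of 10 tested genes of the myelinating list rose, with summed levels of 18909, 22078 and 22189.7 CPM in differentiated cultures and 2292, 1447 and 1444 CPM in precursor cultures. The 10 genes of the precursor list were present in both groups and none passed edgeR's test (4 at an unadjusted p under 0.05, 4 called by DESeq2 and 8 with replicate number as a block), with 1621, 1958 and 2284 CPM in differentiated cultures and 1384, 1937 and 2434 CPM in precursor cultures. Genes of other cell types were also present, and the replicate 1 libraries stood apart in both groups. Summed microglia markers were at 911, 506 and 469 CPM in differentiated cultures (replicates 1, 2 and 5, the order used throughout) and 1274, 509.9 and 493 CPM in precursor cultures. Fibroblast and pericyte markers were at 186, 43.0 and 51.2 CPM in differentiated cultures and 301, 76.4 and 87.1 CPM in precursor cultures, with Rgs5 at 0 in every library. None of the 4 tested endothelial markers passed edgeR's test, reached an unadjusted p under 0.05 or was called by DESeq2. Endothelial markers summed to 1.58 to 2.08 CPM in differentiated cultures and 2.15 to 3.61 CPM in precursor cultures, with Cldn5 and Emcn at 0.

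For 5 of the genes that passed the test, the sequence of the 250 bases before the annotated start of the gene is shown, so that promoters of risen and lowered genes can be read side by side. Vamp1, Rab3a and Rab40c rose and kept their call without any 1 library, Snap29 was the only one of the 11 called genes with a listed promoter to hold CACGTG in this window, and Rab20 had the most negative log2 fold change of the 80 tested genes. The sequences are from RefSeq for the assembly GRCr8, written 5′ to 3′ on the strand of the gene, and capitals mark CACGTG (the E-box of MiT/TFE and other factors), CCAAT or GGGCGG (the GC box) on either strand. Vamp1 lies at chr4:159698644-159698893 on the plus strand, Rab3a at chr16:18722274-18722523 on the minus strand, Rab40c at chr10:15440660-15440909 on the minus strand, Snap29 at chr11:97113196-97113445 on the minus strand and Rab20 at chr16:84721177-84721426 on the plus strand.
Vamp1: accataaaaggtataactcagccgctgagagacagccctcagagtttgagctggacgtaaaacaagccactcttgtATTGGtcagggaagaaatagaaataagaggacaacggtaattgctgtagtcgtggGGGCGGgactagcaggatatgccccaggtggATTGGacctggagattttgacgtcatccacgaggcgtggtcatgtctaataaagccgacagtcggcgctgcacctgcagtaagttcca
Rab3a: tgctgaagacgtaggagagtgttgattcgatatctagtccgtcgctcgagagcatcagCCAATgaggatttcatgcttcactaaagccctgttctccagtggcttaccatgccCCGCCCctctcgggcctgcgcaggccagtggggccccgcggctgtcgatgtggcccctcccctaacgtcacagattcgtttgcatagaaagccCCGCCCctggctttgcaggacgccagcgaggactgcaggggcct
Rab40c: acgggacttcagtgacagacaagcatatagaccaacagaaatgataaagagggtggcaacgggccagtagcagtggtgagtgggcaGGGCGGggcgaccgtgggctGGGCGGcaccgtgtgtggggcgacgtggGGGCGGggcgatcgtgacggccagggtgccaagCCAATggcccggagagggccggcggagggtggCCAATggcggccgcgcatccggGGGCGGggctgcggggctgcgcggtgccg
Snap29: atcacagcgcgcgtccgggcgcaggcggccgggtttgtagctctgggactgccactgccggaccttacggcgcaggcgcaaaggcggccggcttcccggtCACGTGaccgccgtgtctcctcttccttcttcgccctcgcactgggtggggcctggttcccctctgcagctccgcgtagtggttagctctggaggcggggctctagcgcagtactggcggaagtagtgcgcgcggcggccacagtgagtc
Rab20: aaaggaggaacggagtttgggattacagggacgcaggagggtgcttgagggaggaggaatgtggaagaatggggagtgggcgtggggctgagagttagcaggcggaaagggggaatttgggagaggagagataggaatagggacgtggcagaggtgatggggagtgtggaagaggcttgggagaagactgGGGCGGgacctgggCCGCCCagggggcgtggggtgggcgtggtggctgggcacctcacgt

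A promoter was listed for 69 of the 84 genes, and for 11 of the 13 that passed the test, all but Rab33a and Rab38. Each motif was searched on both strands of the 250 bases, and matches of different motifs were allowed to overlap. GGGCGG was found in 52 of the 69 promoters (75.4%), in 7 of the 11 called genes and in 32.4% of the 27457 promoters listed for the assembly. CCAAT was found in 25 of 69 (36.2%) and in 5 of the 11 called genes, against 34.3% of all promoters. CACGTG was found in 5 of 69 (7.25%), against 5.79% of all, and among the called genes in Snap29 alone, 150 bases before the start. ACAAAG, a Sox-type sequence, was found in 5 of 69 (7.25%) and in none of the 11 called genes, against 16.0% of all. The promoters listed for the assembly were not matched to the Rab and SNARE genes by expression, so these shares set no trait of the Rab and SNARE genes apart. A match is a description of letters and shows no binding.

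Across the Rab and SNARE genes, 13 of the 80 tested passed the test between differentiated and precursor cultures, 9 higher and 4 lower (edgeR's quasi-likelihood test, adjusted p under 0.05 by the Benjamini-Hochberg method over all genes). This was 16.2% of the tested genes, whereas 8.86% of the 17797 genes tested in the table were called, 5.65% higher and 3.21% lower. The 9 that rose were the R-SNARE Vamp1, the Q-SNARE Snap29 and the Rabs Rab3a, Rab3c, Rab4a, Rab4b, Rab33a, Rab34 and Rab40c. The 4 that fell were Rab6a, Rab20, Rab27b and Rab38. The other 67 did not pass the test, and an unadjusted p under 0.05 was found for 26 genes, the 13 included. The median log2 fold change of the 80 genes was 0.005, against -0.038 for all genes tested, with 40 genes above 0 and 40 below. In each of the 13, the libraries of the groups did not overlap in CPM, so all 3 same-numbered pairs moved the same way. As the 13 were called from these same libraries, their separation adds no support. Such separation was found for 31 of the 80 genes (38.8%) and for 30.3% of all genes tested, with 21 of the 80 higher against 16.5% of all genes and 10 lower against 13.8%.

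With edgeR on library size alone, where the median of all genes was at -0.188, 7 of the Rab and SNARE genes were higher and 4 lower (63.6% higher among the calls, against 69.2% on the TMM scale). Over the whole table, higher genes made up 40.3% of the calls in that fit, against 63.8% with TMM. With limma on log2(TPM + 1), where the median of all genes was at -0.172, 6 of the Rab and SNARE genes were higher and 8 lower, which is 42.9% higher among the calls, and among all genes called the share was 32.8%. All 13 genes kept their sign in every setting tried. Deviations correlated more between same-numbered libraries than between others, but this check was weak and the labels state no such pairing. With the replicate number as a block the counts were 18 higher and 15 lower, a share of 41.2%, whereas 30.6% of all genes were called in that fit, 14.9% higher and 15.7% lower. With both replicate 1 libraries left out they were 11 higher and 8 lower, against 8.48% and 8.11% of all genes. In bulk libraries such as these, fewer cells of a type and less RNA per cell cannot be told apart.

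**Figure D1:**
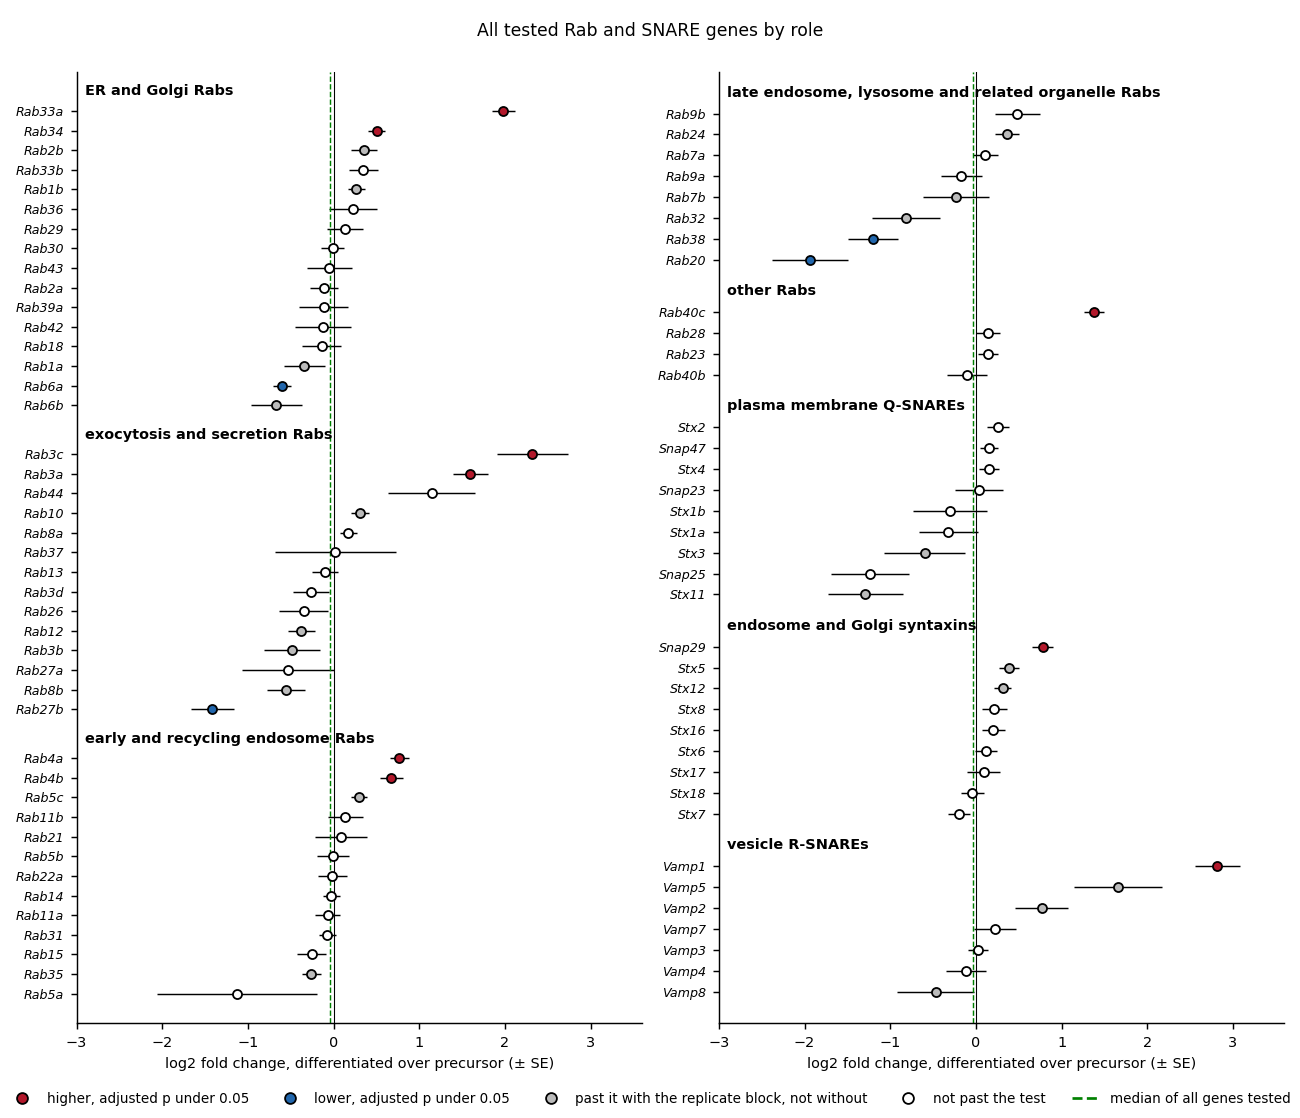
Log2 fold change (differentiated over precursor cultures, x axis) with its SE for the 80 tested Rab and SNARE genes, arranged by role, with the dashed line at the median of all genes tested. Filled red points (9) and blue points (4) passed the test, grey points (20) passed with the replicate block and not without it, and open points did not pass.

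The vesicle R-SNAREs held the largest rise. Vamp1 (synaptobrevin 1, gene 25624), which drives calcium-triggered fusion at nerve terminals, was at 16.3, 23.3 and 24.1 CPM in differentiated cultures and 3.45, 2.18 and 3.42 CPM in precursor cultures. The lowest differentiated library lay far above the highest precursor library. Vamp1 averaged 21.2 ± 4.29 CPM in differentiated cultures and 3.02 ± 0.724 CPM in precursor cultures (SD, n = 3 each), a 7.04-fold difference (log2 fold change 2.82, SE 0.26, edgeR adjusted p = 0.00124). Of the 7 R-SNAREs it was the only one to pass the test, and its call held without any 1 library, with adjusted p of at most 0.00958. Even so, the bulk of the closely related trio stayed with Vamp3 (cellubrevin), the R-SNARE of recycling endosomes. In TPM, which scales for transcript length, Vamp1 took 5.97 ± 1.31% of the summed Vamp1, Vamp2 and Vamp3 level in differentiated cultures and 0.933 ± 0.290% in precursor cultures (SD, n = 3 each). Vamp3 took 90.6 ± 2.75% in differentiated cultures and 96.8 ± 0.723% in precursor cultures, and neither share overlapped between the groups.

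Vamp3 itself was at 216, 213 and 191 CPM in differentiated cultures and 213, 219.6 and 177 CPM in precursor cultures, groups that overlap (log2 fold change 0.02, SE 0.12, edgeR adjusted p = 0.934). Vamp2 (synaptobrevin 2) was at 5.74, 9.02 and 13.1 CPM in differentiated cultures and 4.97, 5.06 and 6.32 CPM in precursor cultures (log2 fold change 0.77, edgeR adjusted p = 0.194, and 0.0361 with the replicate block). Vamp5, a plasma membrane Vamp of muscle cells, was at 9.25, 5.16 and 5.41 CPM in differentiated cultures and 3.80, 1.15 and 1.35 CPM in precursor cultures (log2 fold change 1.66, SE 0.51, edgeR adjusted p = 0.0998, and 0.00239 with the block). DESeq2 (adjusted p = 0.0132) and limma on log2(TPM + 1) (adjusted p = 0.0368) called Vamp5 higher. Both Vamp5 and Vamp2 were thus higher within each same-numbered pair, and for Vamp5 the replicate 1 library was highest in its group on both sides. Vamp8 (endobrevin), a late endosomal R-SNARE, was at 26.8, 15.2 and 12.6 CPM in differentiated cultures and 42.6, 18.2 and 14.9 CPM in precursor cultures (log2 fold change -0.47, edgeR adjusted p = 0.599, and 0.0477 with the block). Without the precursor replicate 1 library its log2 fold change was 0.14. Vamp7, the lysosomal R-SNARE that carries PLP, was at 53.7 to 91.5 CPM in differentiated cultures and 49.7 to 75.9 CPM in precursor cultures (edgeR adjusted p = 0.661), and Vamp4 of the trans-Golgi network had an edgeR adjusted p of 0.828.

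Among the Q-SNAREs of endosomes and the Golgi, Snap29 rose. Snap29 (gene 116500), which with Stx17 fuses autophagosomes with lysosomes, was at 129.5, 112 and 116 CPM in differentiated cultures and 77.5, 63.8 and 66.9 CPM in precursor cultures. Its lowest differentiated library stood well above its highest precursor library. The difference was 1.71-fold (log2 fold change 0.78, SE 0.12, edgeR adjusted p = 0.00897). The call was lost without precursor replicate 2 (edgeR adjusted p = 0.0522) and with limma on log2(TPM + 1) (adjusted p = 0.0935). Its partner Stx17 was at 7.33 to 9.70 CPM in differentiated cultures and 6.76 to 8.80 CPM in precursor cultures (edgeR adjusted p = 0.839). Stx12, a syntaxin of recycling endosomes and the most abundant of this group at 86.2 TPM in differentiated cultures and 84.1 TPM in precursor cultures, was at 218, 201 and 192 CPM in differentiated cultures and 168, 169 and 155 CPM in precursor cultures. Its groups did not overlap, and its log2 fold change was 0.31 (edgeR adjusted p = 0.109, 0.00903 with the block, and 0.0373 with DESeq2). Stx5, the syntaxin of ER-to-Golgi transport, was at 100.2, 92.0 and 97.6 CPM in differentiated cultures and 65.4, 82.5 and 73.6 CPM in precursor cultures (log2 fold change 0.39, edgeR adjusted p = 0.098, 0.0246 with the block, and 0.0445 with DESeq2).

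No plasma membrane Q-SNARE passed edgeR's test (0 of 9, with 2 at an unadjusted p under 0.05), 1 was called by DESeq2, and 2 passed with the block, Stx3 and Stx11 (22.2%, against 30.6% of all genes in that fit). No syntaxin of any compartment passed edgeR's test (0 of 14, with 3 at an unadjusted p under 0.05), 3 were called by DESeq2, and 4 passed with the block (28.6%). Both counts without the block stand beside 8.86% of all genes called. Stx4, the plasma membrane syntaxin with the highest level, was at 28.4 TPM in differentiated cultures and 32 TPM in precursor cultures. Its libraries ran from 39.8 to 45 CPM in differentiated cultures and from 35.8 to 40.6 CPM in precursor cultures. They overlapped (log2 fold change 0.15, edgeR adjusted p = 0.495), and TPM and CPM pointed in opposite directions. Stx11, known from the granules of cytotoxic immune cells, was at 2.37, 0.759 and 1.29 CPM in differentiated cultures and 4.0, 4.02 and 2.82 CPM in precursor cultures (log2 fold change -1.29, SE 0.44, edgeR adjusted p = 0.129, and 0.0289 with the block). DESeq2 (adjusted p = 0.0383) and limma on log2(TPM + 1) (adjusted p = 0.0312) called Stx11 lower. Stx3 was at 19.8, 6.83 and 12.2 CPM in differentiated cultures and 31.9, 13.8 and 13.2 CPM in precursor cultures, groups that overlap (log2 fold change -0.60, edgeR adjusted p = 0.513, and 0.0431 with the block). The Q-SNAREs of the nerve terminal were low in all libraries. Snap25 was at 0.488 to 0.635 CPM in differentiated cultures and 0.838 to 1.83 CPM in precursor cultures (edgeR adjusted p = 0.158). Its ubiquitous relative Snap23 was at 33.4 to 60.5 CPM in differentiated cultures and 33.8 to 60.4 CPM in precursor cultures (edgeR adjusted p = 0.963).

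**Figure D2:**
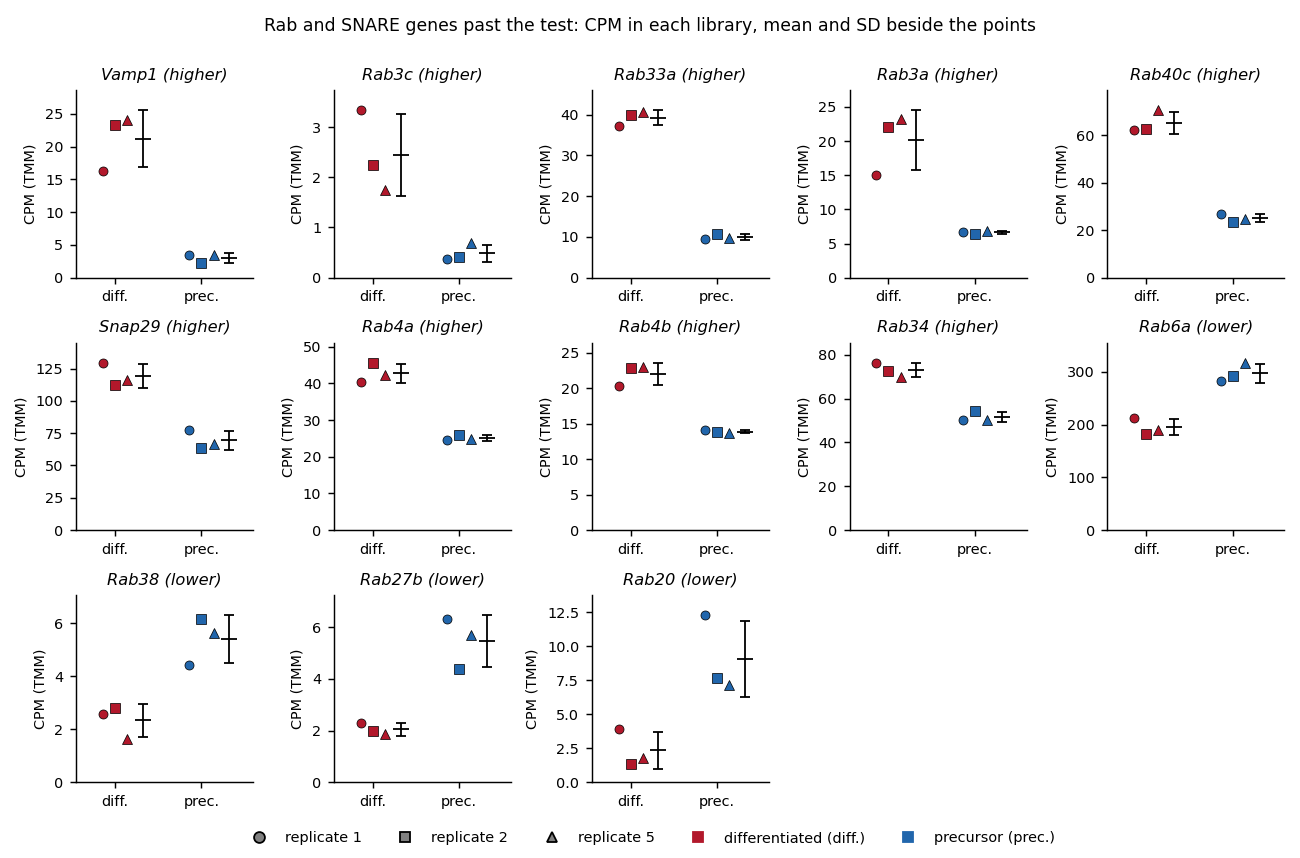
CPM on the TMM scale (y axis, from 0) in each library for the 13 Rab and SNARE genes that passed the test, with differentiated cultures to the left of precursor cultures, a marker shape for each replicate number and the mean with SD beside the points. In each panel the groups do not overlap; Vamp1 averages 21.2 CPM in differentiated cultures and 3.02 CPM in precursor cultures, and Rab20 2.36 CPM in differentiated cultures and 9.05 CPM in precursor cultures.

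Of the 14 Rabs of exocytosis and secretion, Rab3a and Rab3c rose and Rab27b fell. With 5.65% of all genes called higher and 3.21% lower, counts this small set no role group apart from the table. Rab3a (gene 25531), the Rab of synaptic and secretory vesicles, was at 15.1, 22.0 and 23.2 CPM in differentiated cultures and 6.67, 6.40 and 6.88 CPM in precursor cultures. The difference was 3.02-fold (log2 fold change 1.59, SE 0.20, edgeR adjusted p = 0.00394), and the call held without any 1 library, with adjusted p of at most 0.0311. Rab3c (gene 171058), another secretory vesicle Rab, was at 3.33, 2.25 and 1.75 CPM in differentiated cultures and 0.377, 0.405 and 0.681 CPM in precursor cultures. The difference was 4.99-fold from low levels (log2 fold change 2.32, SE 0.42, edgeR adjusted p = 0.0162). The call of Rab3c was lost without differentiated replicate 2 (edgeR adjusted p = 0.0621) and without precursor replicate 2 (edgeR adjusted p = 0.0792).

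Within the Rab3 family the leading member differed between the groups. Rab3a took 46.0 ± 3.50% of the summed TPM of the family in differentiated cultures and 19.5 ± 4.34% in precursor cultures (SD, n = 3 each). Rab3b took 39.1 ± 6.92% in differentiated cultures and 69.1 ± 7.03% in precursor cultures, so it led in every precursor library. In differentiated cultures Rab3a led in replicates 1 and 5, and in replicate 2 Rab3b was at 45.3% and Rab3a at 42.9%. Rab3c took 8.18 ± 4.78% in differentiated cultures and 1.62 ± 0.428% in precursor cultures, and the shares of Rab3a, Rab3b and Rab3c did not overlap between the groups. The summed level of the family overlapped, at 20.1, 36.8 and 35.7 TPM in differentiated cultures and 19.1, 32.4 and 38.3 TPM in precursor cultures. Rab3b by itself was at 8.88, 19.2 and 15.6 CPM in differentiated cultures and 13.9, 24.5 and 22.9 CPM in precursor cultures, with the replicate 1 library lowest in both groups (log2 fold change -0.49, edgeR adjusted p = 0.437, and 0.0129 with the block). Rab3d was at 3.71 to 5.09 CPM in differentiated cultures and 5.03 to 5.64 CPM in precursor cultures (edgeR adjusted p = 0.523).

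Vamp1, Rab3a and Rab3c are known from nerve terminals, and the cultures also held RNA of neuronal genes. The summed neuron markers were at 322, 284 and 313 CPM in differentiated cultures and 259, 413 and 455 CPM in precursor cultures. Of the 15 neuron markers tested, Elavl3 was higher and Stmn2 and Elavl4 were lower in differentiated cultures, and with the block 2 were higher and 4 lower. Rbfox3, which marks mature neurons, was at 0.558 to 0.673 CPM in differentiated cultures and 0.392 to 1.37 CPM in precursor cultures. The part of these cells in the levels of Vamp1, Rab3a and Rab3c was not tested.

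Rab27b (gene 84590), which docks secretory granules and lysosome-related organelles, fell. It was at 2.31, 1.97 and 1.86 CPM in differentiated cultures and 6.31, 4.37 and 5.71 CPM in precursor cultures, with every differentiated library below every precursor library (log2 fold change -1.42, SE 0.25, edgeR adjusted p = 0.0151). The call was lost without differentiated replicate 2 (edgeR adjusted p = 0.0787), differentiated replicate 5 (0.0740) or precursor replicate 5 (0.0542). Rab27a was at 1.06, 1.74 and 1.38 CPM in differentiated cultures and 3.59, 1.59 and 0.861 CPM in precursor cultures, with its highest value in precursor replicate 1 (log2 fold change -0.53, SE 0.54, edgeR adjusted p = 0.621). Without that library the log2 fold change was 0.19. The Rab27 pair together was low, at 0.986 to 1.14 TPM in differentiated cultures and 2.15 to 3.24 TPM in precursor cultures.

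Rab10, a Rab of exocytosis to the plasma membrane and the most abundant of this group at 80.6 TPM in differentiated cultures and 79.0 TPM in precursor cultures, was at 242, 215 and 232 CPM in differentiated cultures and 186, 171 and 199.7 CPM in precursor cultures (log2 fold change 0.31, edgeR adjusted p = 0.136, and 0.0111 with the block). Rab8b, which acts in the same route, was at 10.4, 7.02 and 6.84 CPM in differentiated cultures and 13.7, 11.0 and 11.0 CPM in precursor cultures (log2 fold change -0.56, edgeR adjusted p = 0.183, and 0.0158 with the block). Its paralogue Rab8a was at 80.6 to 86.4 CPM in differentiated cultures and 70.3 to 77.7 CPM in precursor cultures (edgeR adjusted p = 0.369). Rab8a took 81.2 ± 3.12% of the TPM of the pair in differentiated cultures and 72.1 ± 2.79% in precursor cultures (SD, n = 3 each), without overlap. Rab12 was at 15.1 to 18.4 CPM in differentiated cultures and 19.4 to 23.8 CPM in precursor cultures (log2 fold change -0.38, edgeR adjusted p = 0.2, and 0.0237 with the block).

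Of the 16 Rabs of the ER and Golgi, Rab33a and Rab34 rose and Rab6a fell, 18.8% called against 8.86% of all genes. Rab33a (gene 317580), a Golgi-associated Rab that carries vesicles into growing axons of rat neurons, rose evenly across the libraries. It was at 37.1, 39.8 and 40.6 CPM in differentiated cultures and 9.38, 10.8 and 9.61 CPM in precursor cultures. The 3.94-fold difference was many times the spread within either group (log2 fold change 1.98, SE 0.13, edgeR adjusted p = 0.000333), and the call held without any 1 library, with adjusted p of at most 0.00443. Its paralogue Rab33b, a Golgi Rab with a role in autophagy, was at 15.9 to 19.3 CPM in differentiated cultures and 13.0 to 16.7 CPM in precursor cultures (edgeR adjusted p = 0.278). Rab33a took 87.9 ± 1.38% of the TPM of the pair in differentiated cultures and 70.1 ± 3.84% in precursor cultures (SD, n = 3 each). Rab34 (gene 360571), which acts in lysosome positioning and cilium formation, was at 76.3, 72.4 and 69.9 CPM in differentiated cultures and 50.2, 54.1 and 50.2 CPM in precursor cultures (1.41-fold, log2 fold change 0.50, SE 0.10, edgeR adjusted p = 0.0254). Among the 9 rises this was the highest adjusted p. The call was lost without differentiated replicate 1 (edgeR adjusted p = 0.0565), 2 (0.119) or 5 (0.0804) and without precursor replicate 2 (0.0757) or 5 (0.0838), and the adjusted p was 0.101 with library size alone and 0.432 with limma on log2(TPM + 1).

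Rab6a (gene 84379), a major Rab of the Golgi that acts in transport within and out of it, fell. It was at 212, 183 and 190.1 CPM in differentiated cultures and 282, 292 and 317 CPM in precursor cultures, and averaged 195 ± 15 CPM in differentiated cultures and 297 ± 18.0 CPM in precursor cultures (SD, n = 3 each; log2 fold change -0.60, SE 0.11, edgeR adjusted p = 0.0152). The call was lost without differentiated replicate 2 (edgeR adjusted p = 0.0953), differentiated replicate 5 (0.0743) or precursor replicate 2 (0.0641). Rab6b, the form best known from neurons, was at 27.0, 39.4 and 47.2 CPM in differentiated cultures and 39.8, 59.6 and 81.4 CPM in precursor cultures, with overlap between the groups (log2 fold change -0.67, edgeR adjusted p = 0.232, and 0.00184 with the block). The balance of the pair was alike, with Rab6a at 88.1 ± 3.43% of the summed TPM in differentiated cultures and 87.8 ± 3.12% in precursor cultures (SD, n = 3 each).

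Rab1a, the Rab of ER-to-Golgi transport and the most abundant of the ER and Golgi group at 103 TPM in differentiated cultures and 157 TPM in precursor cultures, was at 201, 145 and 118 CPM in differentiated cultures and 252, 172 and 166 CPM in precursor cultures. Within each group replicate 1 was highest, and the groups overlapped (log2 fold change -0.35, edgeR adjusted p = 0.450, and 0.0104 with the block). Rab1b was at 139 to 164 CPM in differentiated cultures and 123 to 128 CPM in precursor cultures (edgeR adjusted p = 0.180, and 0.0280 with the block). Rab2b, also of the early secretory route, was at 44.9, 53.0 and 56.0 CPM in differentiated cultures and 33.6, 44.3 and 42.7 CPM in precursor cultures (log2 fold change 0.35, edgeR adjusted p = 0.219, and 0.0132 with the block). Rab2a was at 135 to 202 CPM in differentiated cultures and 167 to 198 CPM in precursor cultures (edgeR adjusted p = 0.743).

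Both Rab4 genes, which drive fast recycling from early endosomes, rose. Rab4a (gene 25532) was at 40.4, 45.6 and 42.2 CPM in differentiated cultures and 24.6, 25.9 and 24.8 CPM in precursor cultures (1.70-fold, log2 fold change 0.77, SE 0.11, edgeR adjusted p = 0.00666). Rab4b (gene 50866) was at 20.3, 22.9 and 23 CPM in differentiated cultures and 14.1, 13.8 and 13.7 CPM in precursor cultures (1.59-fold, log2 fold change 0.67, SE 0.13, edgeR adjusted p = 0.0235). The precursor libraries of both genes lay within a narrow band, and each differentiated library stood above it. The balance of the pair stayed alike, with Rab4a at 64.7 ± 1.31% of the summed TPM in differentiated cultures and 63.8 ± 1.84% in precursor cultures (SD, n = 3 each). The call of Rab4a was lost without differentiated replicate 2 (edgeR adjusted p = 0.0529) and with limma on log2(TPM + 1) (adjusted p = 0.162). That of Rab4b was lost without differentiated replicate 2 (edgeR adjusted p = 0.122) or 5 (0.105) and without precursor replicate 2 (0.0901) or 5 (0.0813), with library size alone (0.0792) and with limma (0.21).

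The other 11 tested Rabs of early and recycling endosomes did not pass edgeR's test. The most abundant of all 84 genes was Rab31 (Rab22b), which acts between the trans-Golgi network and endosomes. It was at 177 TPM in differentiated cultures and 226 TPM in precursor cultures, and at 624, 616 and 590.2 CPM in differentiated cultures and 603, 671 and 653 CPM in precursor cultures (log2 fold change -0.07, SE 0.10, edgeR adjusted p = 0.711). Rab5c of the early endosome was at 263, 255 and 275 CPM in differentiated cultures and 214, 211 and 222 CPM in precursor cultures (log2 fold change 0.29, edgeR adjusted p = 0.103, 0.00824 with the block, and 0.0372 with DESeq2). Rab35, a Rab of recycling and of exosome release from oligodendroglial cells, was at 27.3, 30.4 and 28.9 CPM in differentiated cultures and 33.9, 35.4 and 34.6 CPM in precursor cultures (log2 fold change -0.26, edgeR adjusted p = 0.207, and 0.0424 with the block). Groups of Rab5c and of Rab35 did not overlap although their differences were small.

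**Figure D3:**
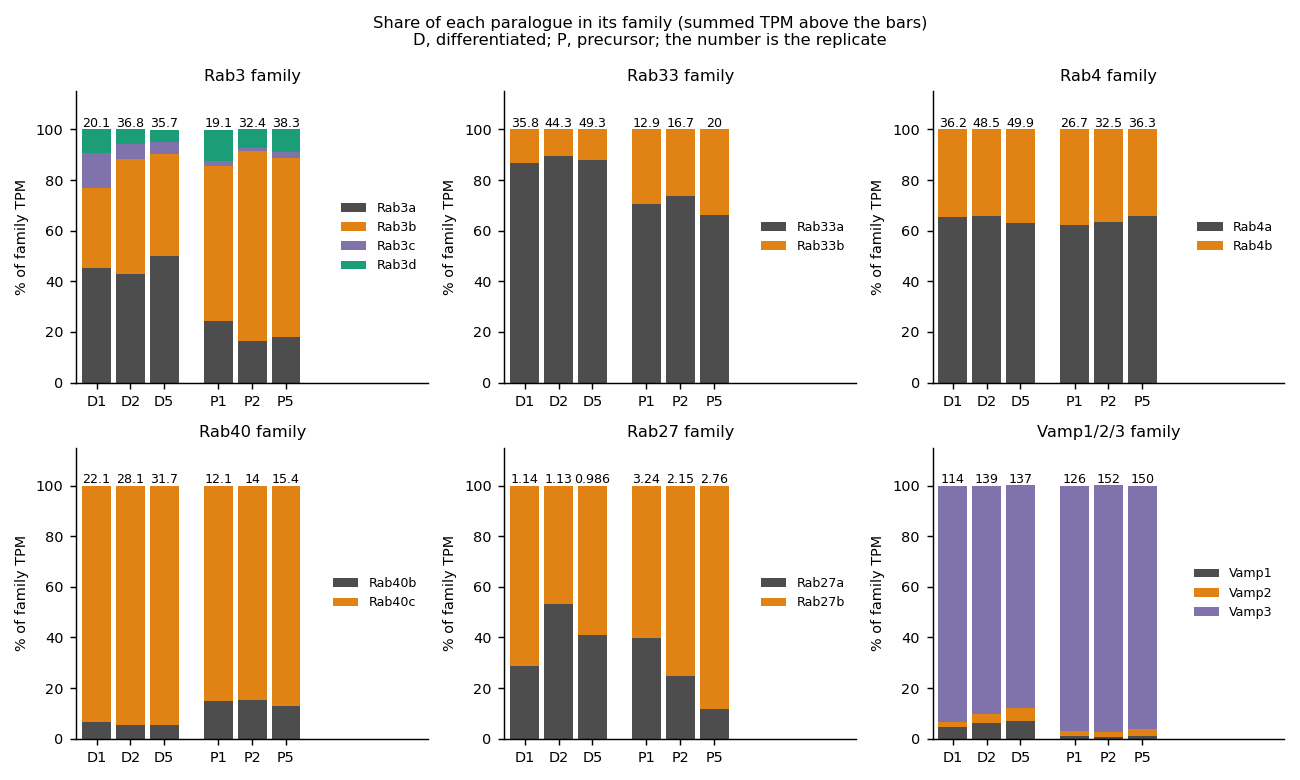
Share of each paralogue in the summed TPM of its family (y axis, percent) in each library, with differentiated libraries (D) left of precursor libraries (P) and the summed TPM above each bar. Rab3a takes 46.0% on average in differentiated cultures and 19.5% in precursor cultures, Rab33a 87.9% in differentiated cultures and 70.1% in precursor cultures, and the Rab4 pair keeps its balance.

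Rab40c (gene 359728), a Rab with a SOCS box that joins a ubiquitin ligase, rose 2.59-fold. It was at 62.1, 62.7 and 70.5 CPM in differentiated cultures and 26.8, 23.6 and 24.9 CPM in precursor cultures (log2 fold change 1.37, SE 0.12, edgeR adjusted p = 0.000785). The groups lay far apart, and the call held without any 1 library, with adjusted p of at most 0.00964. Its paralogue Rab40b was at 2.91 to 3.23 CPM in differentiated cultures and 2.74 to 3.56 CPM in precursor cultures (edgeR adjusted p = 0.840). Rab40c took 94.2 ± 0.668% of the TPM of the pair in differentiated cultures and 85.5 ± 1.33% in precursor cultures (SD, n = 3 each). Rab28, a Rab of cilia and the most abundant of the remaining Rabs, was at 29.1 TPM in differentiated cultures and 30.2 TPM in precursor cultures (log2 fold change 0.14 on counts, edgeR adjusted p = 0.626).

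Of the 8 Rabs of late endosomes, lysosomes and related organelles, Rab20 and Rab38 fell, and 3.21% of all genes were called lower. In edgeR's test 0 of the 8 rose (3 had an unadjusted p under 0.05 and 2 were called by DESeq2, in either direction), and with the block 1 was higher and 4 were lower. Rab20 (gene 689377), which acts in the maturation of phagosomes, was at 3.94, 1.36 and 1.78 CPM in differentiated cultures and 12.3, 7.71 and 7.20 CPM in precursor cultures. In both groups the replicate 1 library was highest, yet every differentiated library was below every precursor library (log2 fold change -1.93, SE 0.44, edgeR adjusted p = 0.0391). The call was lost without differentiated replicate 2 (edgeR adjusted p = 0.123) or 5 (0.147) and without precursor replicate 1 (0.0722), 2 (0.103) or 5 (0.0736). Microglia markers were also highest in the replicate 1 libraries, as given above, and 1 of the 12 tested was called, C1qc, which was higher in differentiated cultures. With the block 6 of the 12 were called, C1qb and C1qc higher and Cd68, Itgam, Tyrobp and Ptprc lower. Of the 7 fibroblast and pericyte markers tested, edgeR's test called 1, Pdgfrb, which was higher in differentiated cultures (log2 fold change 1.04, edgeR adjusted p = 0.0265). With the block 5 of the 7 were lower and 1 was higher. With both replicate 1 libraries left out, the log2 fold change of Rab20 was -2.24 (edgeR adjusted p = 0.00221), in a fit in which 16.6% of all genes were called.

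Rab38 (gene 252916), which with Rab32 supplies cargo to melanosomes and other lysosome-related organelles, was at 2.58, 2.82 and 1.64 CPM in differentiated cultures and 4.41, 6.16 and 5.63 CPM in precursor cultures (log2 fold change -1.20, SE 0.29, edgeR adjusted p = 0.0454). This call lay close to the threshold. It was lost without differentiated replicate 1 (edgeR adjusted p = 0.0759), 2 (0.106) or 5 (0.137) and without precursor replicate 2 (0.155) or 5 (0.119). Rab32 was at 60.5, 21.6 and 25.5 CPM in differentiated cultures and 81.6, 54.6 and 53.3 CPM in precursor cultures, so that the differentiated replicate 1 library reached into the range of the precursor libraries (log2 fold change -0.82, SE 0.40, edgeR adjusted p = 0.274, and 0.00792 with the block). With both replicate 1 libraries left out, the log2 fold change of Rab32 was -1.19 (edgeR adjusted p = 0.00205). Rab7b, which acts between late endosomes and the trans-Golgi network, was at 124, 64.2 and 57.9 CPM in differentiated cultures and 146, 75.8 and 67.2 CPM in precursor cultures (log2 fold change -0.23, edgeR adjusted p = 0.786, and 0.0315 with the block). Rab20, Rab32, Rab7b and Vamp8 were each highest in the replicate 1 library of both groups, as were the summed microglia and the summed fibroblast and pericyte markers, and the part of these cells in their levels was not tested. This pattern was not particular to them. Members of other roles were also highest in replicate 1 of both groups, among them Rab1a, Rab2a, Rab11a, Rab18 and Snap23.

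Rab7a, the general Rab of late endosomes and lysosomes, was at 171, 171 and 145 CPM in differentiated cultures and 173, 152 and 127 CPM in precursor cultures (log2 fold change 0.11, SE 0.14, edgeR adjusted p = 0.712). It led this group at 74.4 TPM in differentiated cultures and 82.0 TPM in precursor cultures. Rab24, known from autophagosomes, was at 35.1, 32.6 and 32.5 CPM in differentiated cultures and 28.2, 27.6 and 22.2 CPM in precursor cultures (log2 fold change 0.36, edgeR adjusted p = 0.163, and 0.0268 with the block).

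**Figure D4:**
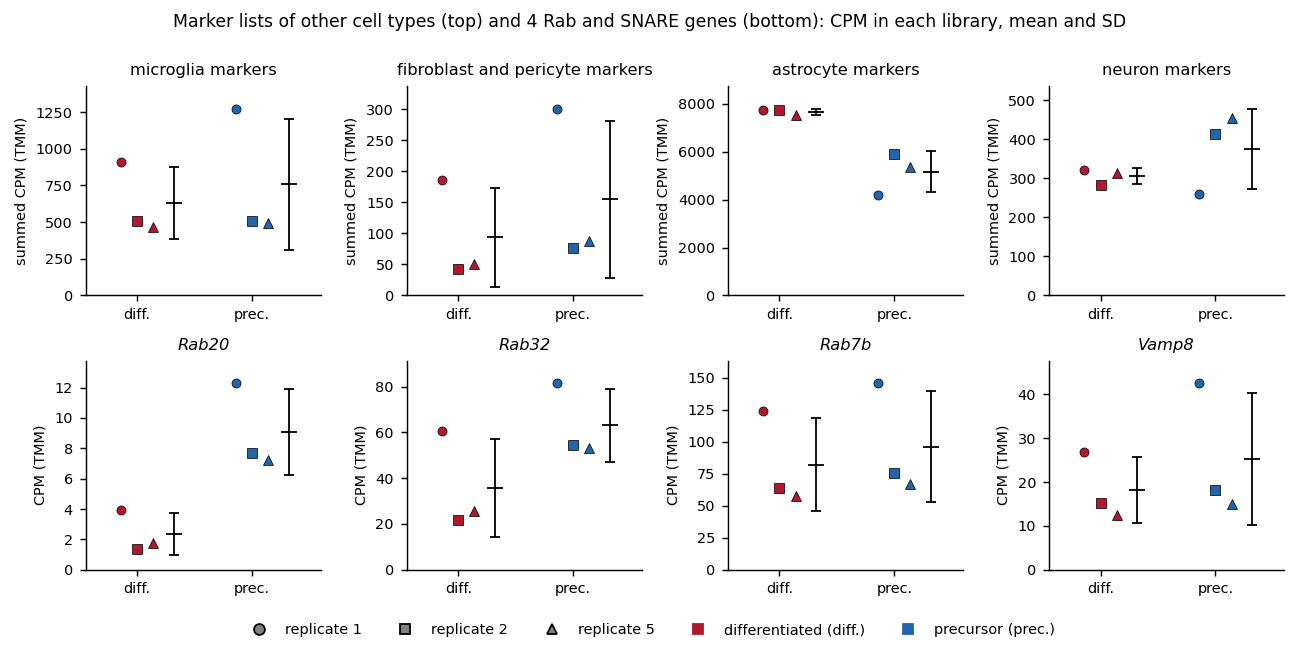
Summed CPM of the marker lists of microglia, fibroblasts and pericytes, astrocytes and neurons (top row) and CPM of Rab20, Rab32, Rab7b and Vamp8 (bottom row) in each library, with differentiated cultures left of precursor cultures and the mean with SD beside the points. The replicate 1 libraries (circles) are highest in both groups for the microglia and the fibroblast lists and for all 4 genes. They are also highest for other Rab and SNARE genes that are not shown, such as Rab1a and Rab11a.

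Astrocyte markers summed to 7747, 7745 and 7521 CPM in differentiated cultures and 4215, 5911 and 5377 CPM in precursor cultures. Of the 9 tested, edgeR called 4 higher (Aldh1l1, Gja1, Aldoc and Slc4a4) and 7 with the block, whereas limma on log2(TPM + 1) called 1. The log2 fold changes of Slc1a2 (-0.30) and Sox9 (-0.05) were negative, and neither was called. Gfap had an edgeR adjusted p of 0.0849. Their part in the risen Rab and SNARE genes was not tested.

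Genes were also ranked by mean TPM over all libraries. The 20 highest, with 35.1 to 201 TPM, held 1 rise (Rab34) and 1 fall (Rab6a). The next 20, with 16.3 to 33.9 TPM, held 4 rises. Genes ranked 41 to 60, with 3.94 to 15.2 TPM, held 3 rises and 1 fall. The last 24, of which 20 were tested, held 1 rise and 2 falls at up to 3.90 TPM. The difference between these ranks was not tested, and 8.86% of all genes were called. The 84 genes together summed to 5041, 4539 and 4477 CPM in differentiated cultures and 4772, 4447 and 4415 CPM in precursor cultures.

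Rab17 had 0 reads in all 6 libraries, and 3 reads, the limit that a count of 0 allows, would be 0.054 CPM in the smallest library. Rab19, Rab25 and Stx19 had at most 10 reads in any library and were not tested. Some entries have a near copy in the table, so that their reads may be split. Rab5a, usually an abundant early endosome Rab, was listed at 12, 2 and 7 reads in differentiated cultures and 21, 13 and 15 reads in precursor cultures. An entry described as Rab5a-like 1 (Rab5al1) was at 80.5, 52.7 and 43.7 CPM in differentiated cultures and 87.3, 54.6 and 48.8 CPM in precursor cultures (edgeR adjusted p = 0.873). Rab1b, Rab18 and Stx7 also have a like-named entry with reads of its own, and the values of these genes are therefore uncertain.

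The regulators and partners of Rabs and SNAREs were read from a list of 164 genes, of which 155 were tested. Of these, 8 were higher and 1 lower in differentiated cultures (5.81%, against 8.86% of all genes), and their median log2 fold change was 0.02. Other SNAREs (12 tested) and the genes of SNARE disassembly (4 tested) held no call in edgeR's test. Among the other SNAREs 2 had an unadjusted p under 0.05, 2 were called by DESeq2 and 5 passed with the block. Of the disassembly genes 1 had an unadjusted p under 0.05, 0 were called by DESeq2 and 1 passed with the block. The Sec1/Munc18 proteins held 1 rise among 8 and the synaptotagmins 1 among 11. Other regulators of SNAREs held 0 calls among 10 in edgeR's test and by DESeq2, with 1 at an unadjusted p under 0.05. The exchange factors held 1 rise and 1 fall among 31, the GTPase activating proteins 2 rises among 33, the effectors 1 rise among 30 and the exocyst 1 rise among 9. With the block the partners held 32 rises and 22 falls, 34.8% against 30.6% of all genes.

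Sytl2 (gene 361604), an effector that binds Rab27 and tethers vesicles to the plasma membrane, had the largest rise of the partners. It was at 61.6, 70.6 and 70.6 CPM in differentiated cultures and 13.4, 13.1 and 11.2 CPM in precursor cultures (5.37-fold, log2 fold change 2.43, SE 0.13, edgeR adjusted p = 0.000216). Rab27b, which it binds, was lower in the same cultures, as given above. Tbc1d30 (gene 299824), a GTPase activating protein for Rab8, was at 13.5, 12.8 and 11.4 CPM in differentiated cultures and 2.21, 2.33 and 2.61 CPM in precursor cultures (5.26-fold, SE of the log2 fold change 0.185, edgeR adjusted p = 0.000578). For both genes the groups lay far apart and the call held without any 1 library.

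The other partner calls described here were smaller, and each was lost without 3 or more of the 6 libraries in turn. With limma on log2(TPM + 1) the rises of Syt3, Stxbp3, Dennd5a, Tbc1d10b and Exoc8 were also lost (adjusted p of 0.0871 to 0.486). Syt3, a calcium sensor of the synaptotagmin family, was at 5.49, 5.72 and 5.57 CPM in differentiated cultures and 1.49, 2.32 and 2.63 CPM in precursor cultures (log2 fold change 1.38, edgeR adjusted p = 0.0227, and 0.0268 to 0.0971 without 1 library). Stxbp3 (Munc18c), which binds Stx4, was at 75.9 to 88.1 CPM in differentiated cultures and 47.8 to 57.4 CPM in precursor cultures (log2 fold change 0.65, edgeR adjusted p = 0.0173, and 0.0170 to 0.0923 without 1 library). The call of Syt3 was lost without either replicate 2 library or differentiated replicate 5, and that of Stxbp3 without either replicate 2 library or precursor replicate 5. Dennd5a, an exchange factor that also binds Rab6, was at 666 to 865 CPM in differentiated cultures and 429 to 522 CPM in precursor cultures (log2 fold change 0.68, edgeR adjusted p = 0.0260, and up to 0.120 without 1 library). The call of Dennd5a held only without differentiated replicate 1. Exoc8, an exocyst subunit, differed by 0.52 on the log2 scale (edgeR adjusted p = 0.0235, and up to 0.116 without 1 library), and its call held only without either replicate 1 library. Tbc1d10b, another GTPase activating protein, differed by 0.51 on the log2 scale (edgeR adjusted p = 0.0428, and up to 0.150 without 1 library), and its call held only without precursor replicate 1. Dennd3, the exchange factor of Rab12, was the 1 partner that fell. It was at 11.1, 7.45 and 8.55 CPM in differentiated cultures and 18.4, 16.4 and 15.2 CPM in precursor cultures (log2 fold change -0.88, edgeR adjusted p = 0.0350, and up to 0.143 without 1 library), and its call held only without differentiated replicate 1.

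**Figure D5:**
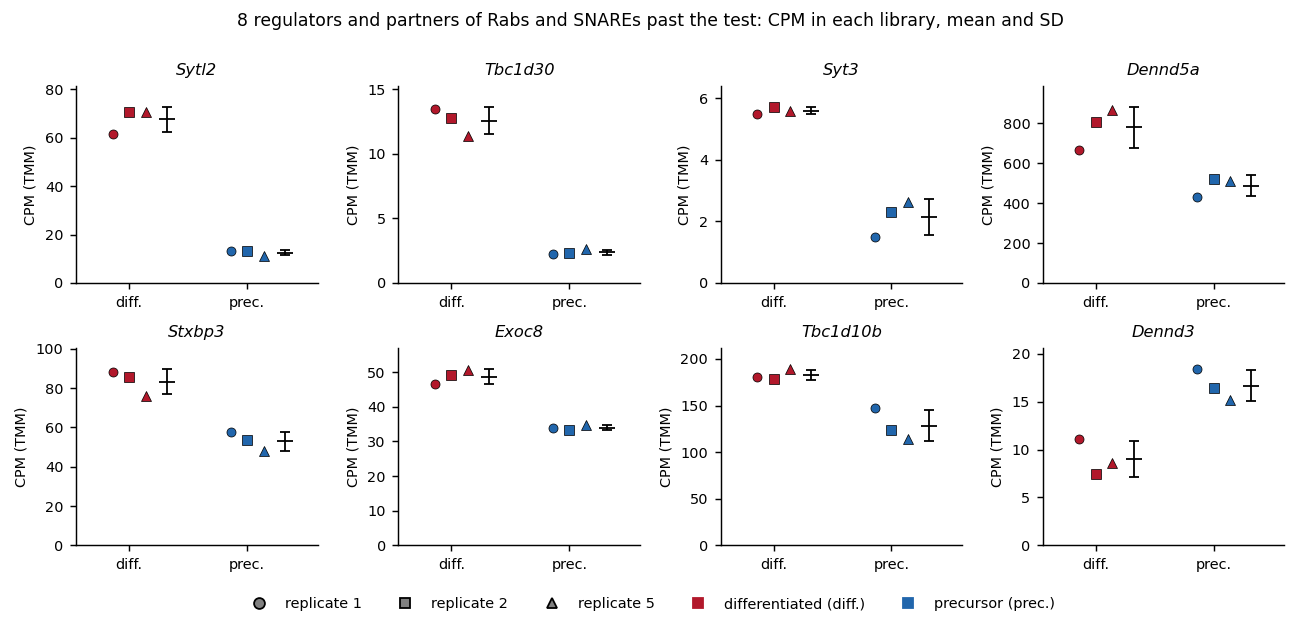
CPM (y axis, from 0) in each library for 8 regulators and partners that passed the test, with differentiated cultures left of precursor cultures and the mean with SD beside the points. Sytl2 sits at 61.6 to 70.6 CPM in differentiated cultures and 11.2 to 13.4 CPM in precursor cultures; Dennd3 is the 1 gene that was lower in differentiated cultures.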

How the data were processed

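Per the labels, total RNA of whole cultures was made into libraries with a stranded total RNA kit. Per the submitters' processing notes, the tools included HISAT2 2.1.0, StringTie 2.1.3b, Trimmomatic 0.38 and bcl2fastq 2.20.0, and the build named is GRCh38, a human assembly, although the table holds rat gene identifiers. For the rat build, annotation release and strand setting, nothing is given in the sources used here. Reads of overlapping and antisense genes may therefore be mixed. The authors deposited, in 1 table, whole-number read counts that are not normalized. The deposited TPM values, scaled by the authors for transcript length and library total, were used for levels between genes. Rn7sl1 took 24.0% to 38.7% of them in a library. A difference in the TPM of a gene between the groups therefore need not match its CPM. Changes were read from the counts, with limma on TPM as an alternative. The deposited FPKM values, also the authors', served only as an alternative for the shares of paralogues.

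Counts were tested with edgeR 4.0.16 in R 4.3.3 (TMM scaling, filterByExpr, robust quasi-likelihood test) over 17797 genes, 3 differentiated against 3 precursor libraries without covariates, and called at an adjusted p under 0.05. The SE of a log2 fold change was obtained by dividing it by the root of its F statistic. The steps were tested on simulated data, in which 37.5% and 34.7% of true log2 fold changes of 1 and -1 were called. For true log2 fold changes of 2 and -2 the shares were 82.0% and 78.3%, and for unchanged genes 0.0704%. A gene that did not pass the test is therefore not shown to be unchanged. Whether the replicate numbers 1, 2 and 5 pair the libraries was checked on deviations from the group means: same-numbered libraries correlated at 0.421, 0.197 and 0.272 and other pairs at no more than 0.105, so a fit with the number as a block is given where it changes a call. The labels do not state such a pairing, and deviations within a group sum to 0, which makes the check weak. Alternatives used DESeq2 1.42.0, limma 3.58.1 on log2(TPM + 1) and log2(TPM + 0.1), library size alone, no low-count filter, and each library left out. Fold changes from limma are on the log2(TPM + pseudocount) scale, which understates low genes.

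Genes described are those called, up to 15 by size of those called only with the block, the most abundant of each role, their paralogues and the called partners, 1 of which is not reported here. Rab5c, Rab35, Stx17, Vamp4, Vamp7, Snap23 and Snap25, and the genes not tested or with near copies (among them Rab5a and Rab18), were named outside this rule after their values were seen. The members, roles, partner and marker lists were chosen with earlier results of these data known. All 84 identifiers matched a RefSeq table of GRCr8, used for promoters. Zfyve20, of the partner list, was not matched by symbol.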

Additional observations from a re-analysis of the deposited data

How the results depend on the processing

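With DESeq2 all 13 calls among the Rab and SNARE genes remained, with library size alone 11 and with limma on TPM 9. DESeq2 called 13 of these genes higher and 5 lower in all, and the added calls were Vamp5, Stx5, Stx12, Rab5c and Stx11. Limma on log2(TPM + 1) added Vamp5, Stx11, Rab8b, Rab12 and Rab32. The median log2 fold change of all genes moved to -0.188 with library size alone and to -0.172 with limma on log2(TPM + 1), and that of the Rab and SNARE genes to -0.162 and -0.222 (-0.252 with a pseudocount of 0.1). It was -0.008 with DESeq2, -0.009 with the replicate block, 0.049 without both replicate 1 libraries and -0.059 to 0.139 with 1 library left out. The replicate block gave 18 Rab and SNARE genes higher and 15 lower, 32 and 22 partners, and 2643 and 2797 of all genes. All 13 calls were kept with the same sign in that fit. Lower calls among the Rab and SNARE genes numbered 8 with limma on log2(TPM + 1), 9 with a pseudocount of 0.1 and 8 without both replicate 1 libraries. With 1 library left out they ran from 0 to 5, and higher calls from 5 to 10. No lower call was left without differentiated replicate 2 or without differentiated replicate 5 in edgeR's test, where 20 and 18 genes had an unadjusted p under 0.05. Higher partners numbered 15 with DESeq2, 3 with library size alone, 2 with either limma fit, 17 without both replicate 1 libraries and 2 to 9 with 1 library left out, and lower partners 9, 7, 5, 8 and 0 to 4. Of all genes, 1521 were higher with DESeq2, 487 and 509 with limma, 1529 without both replicate 1 libraries and 484 to 947 with 1 library left out. Lower were 1252 with DESeq2, 1006 with library size alone, 1000 and 1090 with limma, 1462 without both replicate 1 libraries and 148 to 561 with 1 library left out. The cause of these differences was not tested, except that leaving out a library lowers the number of samples.

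In at least 1 setting the sign changed for 35 of the 80 Rab and SNARE genes tested, 0 of them among the 13 called; 9 of the 35 were chosen by the naming rule and are given here. Of genes described outside that rule, Vamp7 was at -0.043 and Snap23 at -0.214 with limma on log2(TPM + 1). With library size alone, Rab7a was at -0.033, Rab28 at -0.008 and Vamp3 at -0.122 (log2 fold change). With limma on log2(TPM + 1) and on log2(TPM + 0.1), Rab7a was at -0.141 and -0.142, Rab28 at -0.052 and -0.054, Stx4 at -0.151 and -0.155, Vamp3 at -0.229 and -0.231 and Rab8a at -0.088 and -0.090. With 1 library left out, Rab7a ran from -0.004 (without precursor replicate 5) to 0.226, Vamp3 from -0.072 (without precursor replicate 5) to 0.085 and Rab2a from -0.278 to 0.011 (without differentiated replicate 5). Vamp8 ran from -0.844 to 0.144, Rab7b from -0.646 to 0.205 and Rab27a from -0.901 to 0.189, each highest without precursor replicate 1. Rab27a was at 0.355 without both replicate 1 libraries. Levels near 1 CPM, as for Rab27a and Rab3c, rest on few reads.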
